A study of Mus musculus with 24 samples.

Results

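ID8 is a mouse ovarian cancer cell line that arose from surface epithelial cells of the ovary grown in culture, and its state before interferon was described from the untreated samples of an interferon experiment. The untreated ID8 cells were 3 samples measured on 6 arrays, out of 21 samples and 24 arrays in all, and they were chosen by their label alone. Cells were seeded at 150000 per well in medium with 4% serum, and 24 h later they received phosphate-buffered saline as the vehicle for 3 h. The other samples received 10, 100 or 1000 IU/ml of recombinant mouse interferon (IFN) epsilon or IFN beta for 3 h. All groups carry the same cell line, no transgene or deletion is named in the labels, and each sample pooled the technical replicates of 1 date. Replicates 1, 2 and 3 were made on separate dates and are called dates 1, 2 and 3 here, so each date has 1 untreated sample, measured on 2 arrays whose mean was taken.

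Type I interferons signal through a receptor of 2 chains, Ifnar1 and Ifnar2, whose kinases Tyk2 and Jak1 phosphorylate STAT proteins. These join Irf9 to form a factor that binds the interferon-stimulated response element (ISRE) in the promoters of interferon-stimulated genes, among them antiviral effectors and antigen presentation genes. Many of these genes are also transcribed at a low level in resting cells, and the cells of the ovarian surface are a modified mesothelium that carries keratins of simple epithelia together with mesenchymal genes.

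The arrays are single-colour arrays, and each value is the log2 of a probe's processed signal minus the 75th percentile of its array, so 0 is the level that 75% of probes did not exceed. A gene was called expressed if at least 1 of its probes was well above background on all 6 untreated arrays by the scanner software's flag, silent if none of its probes was on any of the 6, and partly detected otherwise. A percentile is the rank of a gene's probe among 56605 probes. It is no amount of RNA, because probes differ in how they bind. It served to pick which members of a list are named and to place a list among all probes, and it gives no order of levels between genes. The 75th percentile of raw intensity lay between 754 and 1078 on the 6 arrays and was lowest on the 2 arrays of date 3, which also had the fewest probes well above background (50.1% and 48.1%, against 52.9% to 53.9%). No spot was saturated (0 on every array), and the lowest signal well above background lay between -5.80 and -5.19.

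Of 22911 named genes, 12889 (56.3%) were expressed, 2027 (8.85%) were partly detected and 7995 (34.9%) were silent. Among 20013 protein-coding genes 12311 (61.5%) were expressed, and among 2594 long non-coding RNA genes 442 were. The 15 genes with the highest mean signal were Tuba1b, Ppia, Wdr92, Rpl41, Rpl8, Ubb, Actb, Cox6a1, Rps16, Fau, S100a6, Gm8709, Gm8580, Rpl37a and Rpl37rt. They include an alpha-tubulin, beta-actin, ubiquitin B, cyclophilin A and parts of the ribosome. Tuba1b stood at 8.34, 8.18 and 8.97 on dates 1, 2 and 3, and Actb at 7.98, 7.82 and 8.27. Several of the 15 are pseudogenes or have near-identical copies (Gm8709, Gm8580, Rpl37rt), so their signal cannot be assigned to 1 locus with certainty.

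**Figure D1:**
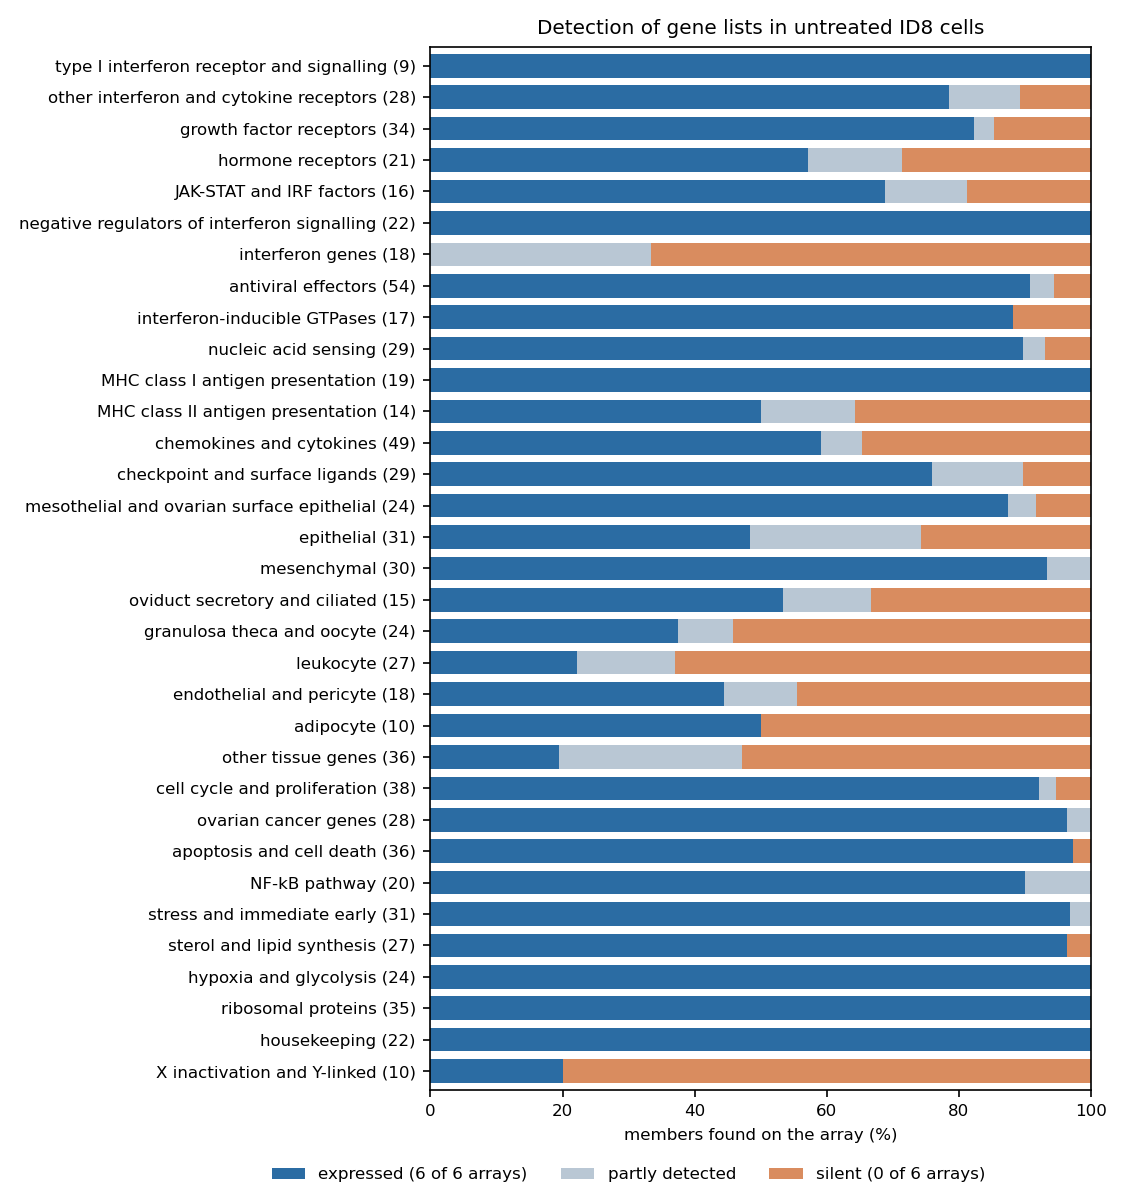
Share of the members of 33 gene lists that were expressed, partly detected or silent on the 6 untreated arrays, with the number of members found on the array in parentheses. The lists of type I interferon signalling, its negative regulators and MHC class I stand at 100% expressed, while no interferon gene is expressed and 22.2% of leukocyte markers are.

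The whole type I interferon receptor and signalling chain was present before treatment: 9 of 9 members were expressed, with percentiles from 71.4 to 92.9. Ifnar1, the low-affinity receptor chain, read 1.35, 1.45 and 0.56 on dates 1, 2 and 3, and Ifnar2, the chain with the higher affinity for ligand, read 2.19, 2.29 and 2.19. Jak1, the kinase bound to Ifnar2, read 3.06, 3.28 and 3.36. Date 3 was thus the low sample for Ifnar1 on both of its arrays, while the 3 dates of Ifnar2 lay close together. Tyk2, the kinase bound to Ifnar1, read -0.58, -0.63 and -1.46 and was also lowest on date 3. Stat2 read 2.11, 1.85 and 2.05, and Irf9 read 2.11, 1.55 and 2.47. The means of Stat2 and Irf9 were lowest on date 2.

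Receptors for the other interferon families were present as well. Ifngr1 and Ifngr2, the chains of the interferon gamma receptor, were expressed, with means of 2.35 ± 0.12 and 1.36 ± 0.28 (SD, n = 3), and so was Ifnlr1, the ligand-binding chain for interferon lambda, with -0.20 ± 0.28 (SD, n = 3). In the wider list of interferon and cytokine receptors 22 of 28 members were expressed. Csf3r, Tnfrsf1a, Osmr and Il15ra were among them (percentiles 94.1 to 97.4), and Csf2rb, Il2ra and Il10ra, receptor chains used mainly by leukocytes, were silent. Of 16 JAK-STAT and interferon regulatory factors 11 (68.75%) were expressed, beside 56.3% of all named genes. Stat3, Irf3, Irf1 and Irf7 were among them, while Irf4 and Irf8 were among the silent members. Irf3, which acts downstream of nucleic acid sensors, read 3.74, 3.54 and 3.56, and Irf1 read 3.29, 3.07 and 3.23, both nearly level over the dates.

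All 22 negative regulators of interferon signalling were expressed. Socs1, an inhibitor of Jak kinases, read -2.06, -2.06 and -1.60, and its relative Socs3 read 3.60, 3.17 and 2.89. Usp18, which removes Isg15 from proteins and blocks Ifnar2 signalling, read -0.45, -1.08 and 0.20. The phosphatases Ptpn11 and Ptpn1 and Irf2bp2 belong to the same list. Of 29 nucleic acid sensing genes 26 were expressed, among them Rnaseh2c, Ifi204, Traf3 and Rnaseh2a, and Aim2 and Ifi202b were silent.

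The interferon genes themselves were not expressed: 0 of 18 were well above background on all 6 arrays, 12 were silent and 6 were partly detected. Ifnb1 read -8.00, -8.10 and -7.61 and Ifne read -7.45, -7.16 and -6.61, in both cases not well above background on any array. Ifnl3 and Ifna9 were well above background on 4 of 6 arrays, Ifna1 on 2, and Ifna5, Ifnab and Ifng on 1. Members of the Ifna family are near-identical in sequence, so a signal in 1 of them cannot be told from that of another.

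Interferon-stimulated genes were widely detected in the absence of added interferon. Of 54 antiviral effectors 49 (90.7%) were expressed, beside 56.3% of all named genes, 2 were partly detected and 3 were silent (Ifit1bl1, Slfn5 and Ifi44l). Ifi27, Trim25, Ifitm3 and Samhd1 were among the expressed members (percentiles 94.6 to 98.2). Bst2, which tethers budding virus to the cell, read 4.01, 3.22 and 3.90, and Isg15, the ubiquitin-like modifier, read 3.36, 2.59 and 4.37. Ifit1 and Ifit3, which bind viral RNA and its signalling partners, were expressed too: Ifit1 read -2.38, -2.50 and -0.49, and Ifit3 read -2.00, -2.54 and 0.00. All 3 genes were highest on date 3 on both of its arrays; Isg15 and Ifit3 were lowest on date 2 on both arrays, and the arrays of dates 1 and 2 overlapped for Ifit1. Of 17 interferon-inducible GTPases 15 were expressed, among them Ifi47, Irgm1, Tgtp2 and Irgm2, and Iigp1 and Gbp2b were silent.

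Whether the promoters of these genes hold the letters of the ISRE core was read from the 250 bases before their starts, from RefSeq on GRCm38.p6, with GAAA, any 2 bases and GAAA again searched on both strands. The core was found in 17 of 46 antiviral effectors with a promoter entry (37.0%) and in 9 of 10 GTPases, beside 936 of 27025 genes in the table (3.46%). Among antiviral effectors expressed in untreated cells 14 of 41 held it. The promoters below are shown because all hold the core while Isg15, Ifit1 and Ifit3 were highest and Oas1a lowest on date 3; the core stands in capitals (TTTC, 2 bases and TTTC is the same core on the other strand). They lie at chr4:156200819-156201068 on the minus strand (Isg15), chr19:34640639-34640888 on the plus strand (Ifit1), chr19:34583279-34583528 on the plus strand (Ifit3) and chr5:120907526-120907775 on the minus strand (Oas1a).
Isg15: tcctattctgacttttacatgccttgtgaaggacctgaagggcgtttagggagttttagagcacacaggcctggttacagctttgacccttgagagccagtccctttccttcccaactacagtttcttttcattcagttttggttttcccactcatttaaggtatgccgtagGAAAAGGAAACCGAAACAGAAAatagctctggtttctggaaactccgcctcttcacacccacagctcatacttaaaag
Ifit1: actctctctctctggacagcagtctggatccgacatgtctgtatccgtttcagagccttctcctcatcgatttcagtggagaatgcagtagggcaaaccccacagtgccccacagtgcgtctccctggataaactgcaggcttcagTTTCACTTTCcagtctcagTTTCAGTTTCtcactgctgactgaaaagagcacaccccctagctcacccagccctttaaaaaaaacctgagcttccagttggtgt
Ifit3: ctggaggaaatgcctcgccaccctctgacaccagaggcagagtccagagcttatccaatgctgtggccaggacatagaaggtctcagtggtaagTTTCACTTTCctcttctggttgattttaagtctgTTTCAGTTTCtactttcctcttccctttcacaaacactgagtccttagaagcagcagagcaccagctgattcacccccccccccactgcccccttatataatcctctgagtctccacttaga
Oas1a: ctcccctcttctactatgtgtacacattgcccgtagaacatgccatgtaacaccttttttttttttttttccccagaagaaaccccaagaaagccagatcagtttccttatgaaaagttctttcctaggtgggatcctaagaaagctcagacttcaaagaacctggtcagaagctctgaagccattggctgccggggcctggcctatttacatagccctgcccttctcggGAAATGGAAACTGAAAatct
The Isg15 window holds 3 overlapping copies that start 78 to 66 bases before the gene's start, Ifit1 holds 2 (104 and 85 bases before), Ifit3 holds 2 (156 and 122 bases before) and Oas1a holds 2 overlapping copies (20 and 14 bases before). A match describes letters in a window, and binding was not measured.

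Antigen presentation by MHC class I was fully represented, with 19 of 19 members expressed and a median percentile of 93.7. B2m, the light chain, read 5.17, 5.42 and 5.12, the heavy chain gene H2-K1 read 5.16, 5.51 and 4.49, and H2-D1 read 4.00, 4.02 and 3.22. B2m was level over the dates, whereas both heavy chain genes were lowest on date 3, with the reservation that H2 genes are too alike for a probe to separate them with certainty. The peptide transporter Tap1 read -0.53, -0.44 and -0.64, the immunoproteasome subunit Psmb8 read 1.08, 0.93 and 0.22, and Nlrc5, the transactivator of class I genes, read -3.25, -2.81 and -3.78. Of 14 class II members 7 were expressed, a share (50%) near the 56.3% of all named genes. They included Rfxap, Rfxank, H2-DMb1 and Cd74, and H2-Aa and H2-Eb1, which encode chains of the class II molecule, were silent.

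Of 49 chemokines and cytokines 29 (59.2%) were expressed, a share near the 56.3% of all named genes, and 17 were silent. Ccl2, which attracts monocytes, read 5.45, 5.54 and 6.03, Cxcl10, which attracts activated T cells, read 1.54, 0.83 and 2.30, and Ccl5 read 0.96, 0.98 and 1.45. Mif, Spp1 and Cxcl12 were expressed too (percentiles 97.8 to 99.1). Tnf, Il10, Csf2, Il12a, Il12b and the death ligand Tnfsf10 were silent. Among checkpoint and surface ligands 22 of 29 were expressed, among them Lgals1, Nectin2, Ly6e and Cd47. Cd274, which encodes PD-L1, was expressed with readings of -3.28, -3.44 and -3.25, and Pdcd1lg2 and Cd86 were silent.

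**Figure D2:**
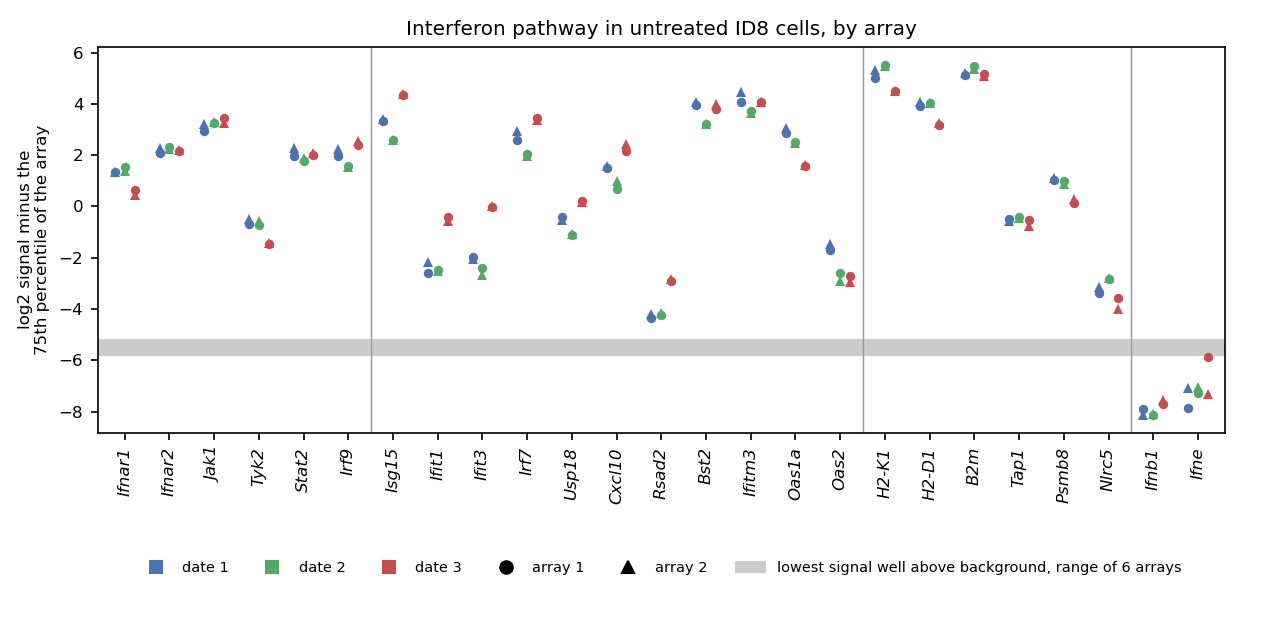
Log2 signal minus the 75th percentile of the array for genes of interferon signalling, interferon-stimulated genes, MHC class I and 2 interferon genes, in blocks from the left, with 1 point per untreated array. Isg15, Ifit1, Ifit3, Irf7, Usp18 and Cxcl10 are highest on date 3, Oas1a and H2-D1 are lowest there, and Ifnb1 and Ifne lie below the grey band of the lowest signals that were well above background.

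The lineage markers were set against the labelled origin in the surface epithelium of the ovary. Of 24 mesothelial and ovarian surface epithelial markers 21 were expressed (median percentile 93.9). Wt1, a transcription factor of mesothelium, read 6.35, 6.40 and 6.40, with an SD over dates of 0.03, and the simple keratins Krt18 and Krt8 read 6.40, 6.36 and 6.92 and 6.01, 5.90 and 6.48. Msln, mesothelin, read 4.53, 4.76 and 5.57, and Upk3b read 4.83, 4.87 and 4.98. These 5 markers were thus well above background at every date, while Tcf21 and Calb2 were silent. Mesenchymal genes accompanied them: 28 of 30 were expressed and none was silent; Sparc, Acta2, Fn1 and Vim were among those expressed. Vim, the intermediate filament of mesenchymal cells, read 5.71, 5.64 and 6.04, and Cdh2, N-cadherin, read 3.90, 3.92 and 4.29.

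Of 31 markers of other epithelia 15 (48.4%) were expressed, a share near the 56.3% of all named genes, and 8 were silent. Cdh1, E-cadherin, read -1.31, -1.43 and -2.75, and Epcam read -5.01, -4.49 and -4.43, close to the lowest signal well above background. Krt14 read 5.41, 5.05 and 6.02 and Cldn3 read 3.16, 3.49 and 3.90, so single genes of this list were high while Krt5, Cldn4 and Ocln were silent. Of 15 oviduct genes 8 (53.3%) were expressed, also a share near that of all named genes. Pax8, the transcription factor of oviduct secretory cells, Sox17 and Wfdc2 were silent. Krt7, a keratin of both the mesothelial and the oviduct lists, read 0.91, 0.97 and 3.25.

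Several genes of ovarian stroma and steroid-producing cells were expressed although most of their list was not (9 of 24 expressed, 13 silent). Foxl2, a transcription factor of granulosa cells, read 5.27, 5.09 and 5.47, Nr5a1 read 2.85, 3.16 and 2.97, and Star, which carries cholesterol into mitochondria, read 2.18, 2.83 and 2.19. The steroidogenic enzymes Cyp11a1, Cyp19a1 and Hsd3b1, the receptors Fshr and Lhcgr, Amh, and the oocyte genes Zp1, Zp2, Zp3 and Bmp15 were silent. Among 21 hormone receptors 12 (57.1%) were expressed, a share near the 56.3% of all named genes. They included Amhr2, the receptor for anti-Mullerian hormone, which read 5.30, 5.71 and 4.93. Esr1, the oestrogen receptor, read -1.16, -0.98 and -1.86, and Pgr, the progesterone receptor, was silent, as were Prlr, Nr3c2 and Gnrhr.

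Markers of leukocytes and other tissues were mostly not detected. Of 27 leukocyte markers 17 were silent, including Ptprc, Cd79a, Mpo, S100a8 and Ncr1, 4 were partly detected and 6 were expressed, among them Itgam, Cd68, Cd14 and Csf1r (percentiles 69.1 to 84.3). Of 18 endothelial and pericyte markers 8 (44.4%) were expressed, beside 56.3% of all named genes. Mcam, Esam, Flt1 and Kdr were among them, and Tek, Vwf, Tie1, Cdh5, Emcn and Erg were silent. Adipoq, Plin1 and Cidec were silent among adipocyte genes, whereas Lpl and Pparg were expressed. Of 36 genes of other tissues 7 were expressed, among them Mbp, Krt10, Lor and Acta1, and 19 were silent. Xist, the RNA of the inactive X chromosome, was well above background on all 6 arrays and read -2.29, -2.18 and -2.67, and Usp9y, Eif2s3y, Uty, Kdm5d and Ddx3y of the Y chromosome were silent.

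Of 28 ovarian cancer genes 27 were expressed, among them Akt1, Mdm2 and Akt2, and Trp53 read 1.41, 1.27 and 1.16. Of 38 cell cycle genes 35 were expressed (median percentile 95.4), among them Birc5, Pcna, Ccnd2 and Cdk4, and the 2 silent members were the neighbouring cyclin-dependent kinase inhibitor genes Cdkn2a and Cdkn2b. Cdkn2a read -7.82, -7.92 and -7.49 and Cdkn2b read -7.85, -7.80 and -7.37. Of the genes beside them, chosen after their values were seen, Mtap was expressed and read 4.68, 5.11 and 5.64, and Dmrta1 was silent. Growth factor receptors were expressed in 28 of 34 cases, among them Axl, Ddr1, Tyro3 and Tgfbr2, while Fgfr4, Tek, Erbb4 and Ret were among the silent members. Apoptosis genes (35 of 36), NF-kB genes (18 of 20), stress genes (30 of 31), sterol and lipid synthesis genes (26 of 27), and glycolysis and hypoxia genes (24 of 24) were expressed almost throughout.

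**Figure D3:**
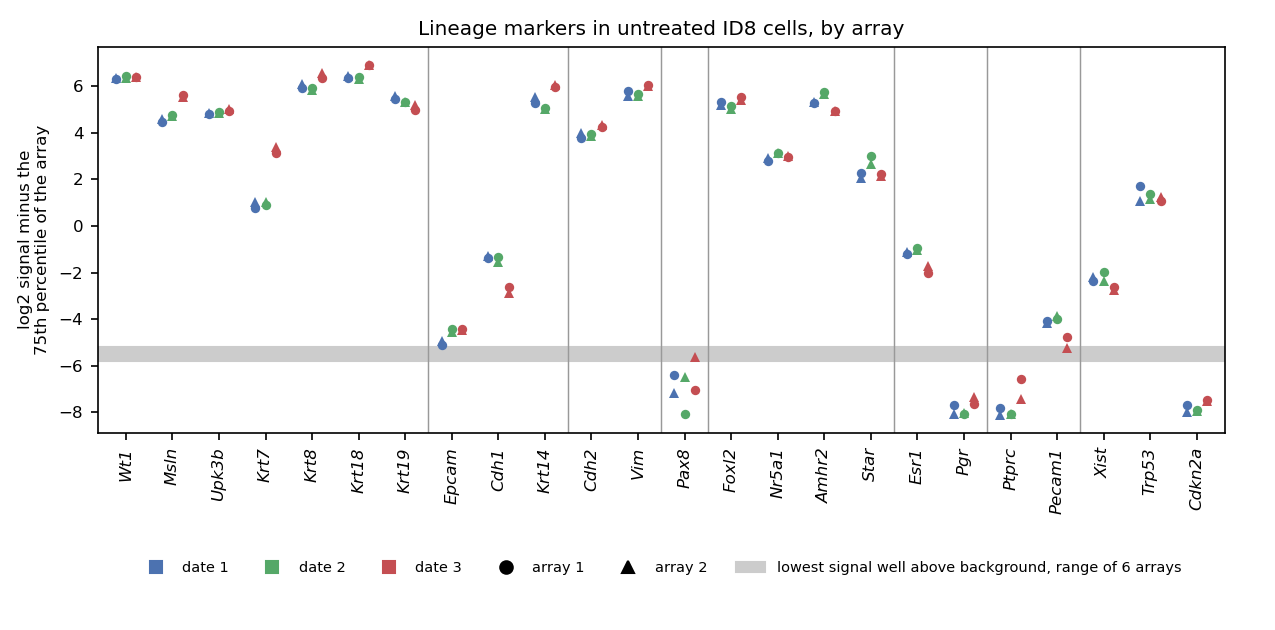
Log2 signal minus the 75th percentile of the array for lineage markers, with 1 point per untreated array and blocks, from the left, of mesothelial, epithelial, mesenchymal, oviduct, ovarian stromal, hormone receptor, blood and vessel, and other genes. Wt1, Foxl2 and Vim are high on all 6 arrays, Pgr, Ptprc and Cdkn2a lie below the lowest signals well above background (grey), Pax8 lies below or within them, and Krt7 stands apart on date 3.

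The spread between arrays was next set against the spread between dates. Over 12879 genes whose probe was well above background on all 6 arrays, the median SD was 0.12 between the 2 arrays of a sample and 0.20 between the 3 sample means. Between the 10 spots of a probe on 1 array it was 0.08 (285 probes). The SD between samples exceeded that between arrays for 9257 genes (71.9%), although sample means are already averages of 2 arrays. Without date 3 both medians were 0.11, so the gap between the 2 medians came with date 3. Equal medians do not show that dates 1 and 2 were alike, because sample means are averages of 2 arrays. Between dates 1 and 2, 2724 of 13996 genes had a limma p under 0.05 before adjustment. Over all 56605 probes, dim and unnamed ones included, arrays of a sample correlated at 0.991 to 0.993 and arrays of dates 1 and 2 at 0.990 to 0.992. Arrays of date 3 correlated with those of date 1 at 0.984 to 0.986 and of date 2 at 0.984 to 0.985. Date 3 was therefore the sample that stood apart. The median SD between arrays was 0.12 on date 1, 0.05 on date 2 and 0.09 on date 3, and both arrays of date 2 lay on 1 slide, whereas those of dates 1 and 3 lay on 2 shared slides, so date 2 and its slide cannot be told apart.

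In limma's moderated F test with Benjamini-Hochberg adjustment, 4647 of 13996 genes (33.2%) differed between the 3 untreated samples by more than arrays of a sample do. With 1 sample per date, this says that the samples differed, not that dates differ in general. Between dates 1 and 2 the same fit called 73 genes higher (0.522%) and 18 lower (0.129%) on date 2. On date 3 against date 1 it called 2357 higher (16.8%) and 1832 lower (13.1%), and against date 2 2491 higher (17.8%) and 2187 lower (15.6%). Over all genes, the differences between dates 3 and 1 within each of the 2 slides they share correlated at 0.79, across genes, which are not independent. The share of calls that were higher, 56.3%, was 76.6% with arrays scaled on their median, 67.1% after normexp background correction and 49.0% in the deposited table, and the median difference of all genes, 0.08, became 0.31 under median scaling. Without 1 array the count of 4189 became 2737 (date 1, array 1), 2576 and 2565 (date 2, arrays 1 and 2), 2092 and 2559 (date 3, arrays 1 and 2), each with 1 residual degree of freedom fewer. With dates 1 and 2 alone, 1 gene differed.

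Interferon-stimulated genes moved in both directions on date 3. Of 51 antiviral effectors tested 18 (35.3%) were higher than on date 1, beside 16.8% of all genes, and 9 (17.6%) were lower, beside 13.1%, with a median difference of 0.16 beside 0.08 for all genes. The largest rises were Ifit3b at 2.13 ± 0.09 (SE, limma adjusted p = 0.000424), Ifit3 at 2.00 ± 0.11 (adjusted p = 0.000627) and Ifit1 at 1.89 ± 0.16 (adjusted p = 0.00151). Rsad2 (viperin) rose by 1.41 ± 0.10 and Isg15 by 1.01 ± 0.08. Ifit3 and Ifit3b are near-identical, so they may share signal. Members that fell included Slfn2, Oas1g, Oas1a and Oas2, and Ifitm1, at -2.28, whose call was lost under normexp (-0.32). Oas1a, which makes the 2-5A activator of RNase L, differed by -1.35 ± 0.10 (limma adjusted p = 0.00118) and Oas1g, its near-identical neighbour, by -1.77 ± 0.10. The core of the ISRE was in 5 of 15 promoters of the risers, 3 of 6 of the fallers and 7 of 22 of the members not called.

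Of 15 GTPases 6 (40%) were higher on date 3, beside 16.8% of all genes (Irgm1 by 1.16 ± 0.08, limma adjusted p = 0.00106) and none (0) was lower. Irgm1 and Gbp3 kept their calls in every alternative. The calls of Irgm2 and Ifi47 were lost without either array of date 3, that of Tgtp2 without array 2 and that of Gbp2 without array 1 of date 3. Of 19 class I genes 3 (15.8%) were higher, beside 16.8%, and 9 (47.4%) lower, beside 13.1% of all genes, with a median of -0.46. Psmb8 fell by 0.86 and H2-D1 by 0.78 on the log2 scale, and both kept their calls in every alternative. The calls of H2-K1, H2-Q4, Psmb9 and Tap2 were lost under median scaling, and that of H2-K1 also without either array of date 3. In the receptor chain Ifnar1 differed by -0.79 ± 0.11 (limma adjusted p = 0.00765) and Tyk2 by -0.88 ± 0.12 (adjusted p = 0.0064), while the other 7 members were not called between dates 3 and 1. Irf7, the factor that amplifies interferon responses, rose by 0.65 ± 0.14 and Cxcl10 by 0.76 ± 0.15, but the Irf7 call was lost without any 1 array of date 2 or 3, and the Cxcl10 call without either array of date 1, without array 2 of date 3 and in the deposited table. Usp18 rose by 0.65 ± 0.09 (limma adjusted p = 0.00692).

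The counts of the lists outside interferon stand beside 16.8% higher and 13.1% lower among all genes. There, 15 of 26 (57.7%) sterol and lipid synthesis genes were lower on date 3 and 1 was higher (median -0.43). Scd1, a fatty acid desaturase, fell by 1.61 and Hmgcs1, an early enzyme of sterol synthesis, by 0.72 on the log2 scale, a call lost under median scaling. Of 24 hypoxia and glycolysis genes 10 (41.7%) were lower and 1 higher (median -0.31), among them Bnip3 at -1.51 and Vegfa at -0.72, whose call was lost under median scaling and without array 1 of date 3. Cell cycle genes went the other way, with 13 of 35 (37.1%) higher and none (0) lower (median 0.31), such as Ccnb1, the mitotic cyclin, at 0.81. The calls of Birc5 and Cdk4 were lost after quantile normalization and in the deposited table. Of ribosomal genes 2 of 35 (5.71%) and of housekeeping genes 4 of 22 (18.2%) were higher, also with none (0) lower (medians 0.21 and 0.18). Hormone receptors were lower in 9 of 15 cases (60%, median -0.63), including Pparg at -1.06, although Ppara and Thrb were partly detected only and lost their calls under normexp. Of 21 mesothelial markers 11 (52.4%) were higher and 3 (14.3%) lower (median 0.47): Krt7 rose by 2.35 ± 0.14 (limma adjusted p = 0.000705), Msln by 1.04 ± 0.09 and Upk1b by 1.04. Of 20 markers of other epithelia 3 (15%) were higher and 7 (35%) lower (median -0.39), and Cdh1 of that list fell by 1.44. None of the 9 list medians checked under the other scalings changed sign, and the hypoxia and glycolysis median came nearest to 0, at -0.09 with arrays scaled on their median. Over all alternatives, 36 values of these medians shifted by more than the spread of the list's differences over the square root of its size. The housekeeping and other epithelial medians were not checked. Of 104 genes named or listed for a check with a call between dates 3 and 1, 54 kept it in every alternative; Krt8, Krt18, Krt14, Birc5 and Amhr2 were among those that did not.

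The same comparison of dates was made in the 16 treated samples, which are other arrays and other wells of the same dates. With treatment as a term, 8904 of 14286 genes (62.3%) differed between dates, and 4204 of the 4597 genes called in untreated cells and tested in both (91.5%) were among them, which is 47.6% of the 8823 treated calls. Of 4151 genes called between dates 3 and 1 in untreated cells, 4040 (97.3%) had the same sign in treated samples, beside 82.3% of all genes. Ifit3 differed by 2.00 in untreated and 2.19 in treated samples, Ifnar1 by -0.79 and -0.87, Krt7 by 2.35 and 2.50, and Scd1 by -1.61 and -1.80. Class I genes differed in this respect: their median was -0.46 in untreated and 0.17 in treated samples, and Psmb8 read -0.86 and 0.33. They were not alone, since the median of 12 JAK-STAT and interferon regulatory factors was -0.23 in untreated and 0.35 in treated samples. A test of the difference between the date effects, added after the data were seen, called 7 of 14357 genes for dates 3 and 1 (332 at an unadjusted p under 0.05), none of them in these lists. In treated samples a difference between dates at rest and a difference in response cannot be told apart.

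**Figure D4:**
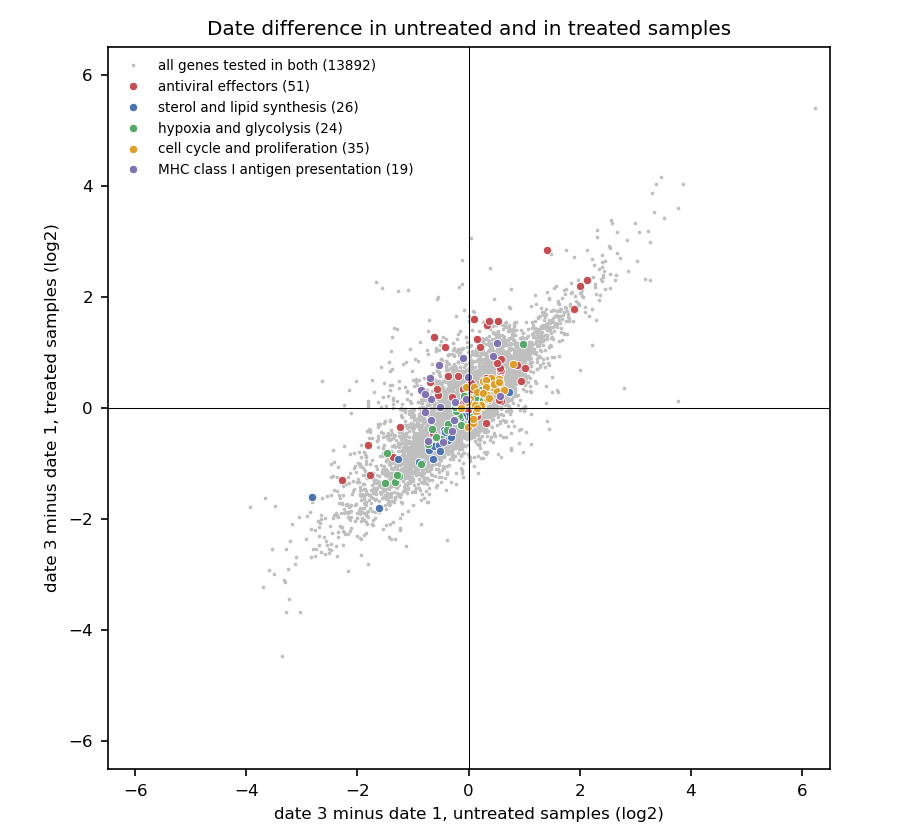
Difference between dates 3 and 1 on the log2 scale in untreated samples (horizontal axis) and in treated samples with treatment as a term (vertical axis) for 13892 genes tested in both, with 5 gene lists coloured. The points follow the diagonal (correlation 0.84 across genes, which are not independent), with sterol and hypoxia genes mostly at the lower left and cell cycle genes at the upper right.

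Among genes called in untreated cells whose order of dates was the same in treated samples, the rule on the range of readings named Hsd17b3, Treml1, Ndufa4l2, Nppb, Wfdc18, Vsig1, Ms4a4d and Ppp1r3c. For 6 of these 8 the lowest date was not well above background on either array, so their ranges are no ranking and only bounds are given. Hsd17b3, a testosterone-forming enzyme, read -7.63, -5.05 and -1.40, and it was not well above background on either array of date 1. In the scaling used here date 3 was thus at least 19.6-fold higher, counting the low date at the lowest signal well above background. Its log2 difference between dates 3 and 1, 6.23, became 2.78 in the alternative that lowered it most, so the bound holds for this scaling only. Nppb, which encodes a natriuretic peptide, read -5.64, -5.79 and -1.79, and Wfdc18 read -4.80, -1.89 and -1.02. Hsd17b3 and Nppb were thus highest on date 3 by a wide margin, whereas Wfdc18 was low on date 1 alone. Treml1, Ndufa4l2, Vsig1, Ms4a4d and Ppp1r3c were well above background on both arrays of their highest date and on 0 of 2 on date 3, with bounds from 2.98-fold (Ppp1r3c) to 9.91-fold (Vsig1). Under normexp the call of Treml1 between dates 3 and 1 was lost (-0.20), and the differences of Ndufa4l2, Ms4a4d and Ppp1r3c shrank to -0.57, -0.65 and -0.41. That of Vsig1, -3.69, became -1.60 in the alternative that brought it nearest to 0, so these bounds too hold for the scaling used here. Among genes not called in treated samples the same rule named Tmem82, Tcstv3, Batf2, Plbd1 and 1700034H15Rik. All 5 were not well above background on date 3, with bounds of only 1.65-fold to 3.43-fold, and Plbd1 and 1700034H15Rik lost their calls between dates 3 and 1 under normexp.

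Genes silent in untreated cells were then followed into the samples with 1000 IU/ml IFN epsilon. In limma's fit over 19 samples, 319 of 14293 genes (2.23%) were higher and 10 lower than in untreated cells, and 256 of the 319 were expressed before treatment, 32 were partly detected and 31 were silent. Of all 14293 genes tested 12889 were expressed, 1258 partly detected and 146 silent, and silent genes could be tested only if treated samples detected them. At 1000 IU/ml IFN beta 226 genes (1.58%) were higher, of which 197 were expressed and 12 silent; both comparisons use the same untreated samples. With the replicate number as a block, 1191 genes were called for IFN epsilon, 624 of them higher and the rest lower, and 466 for IFN beta, 393 of them higher. With the 2 arrays that the labels mark as excluded, 71 and 0 genes were called in all.

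Of the 146 silent genes tested, 20 were called and well above background on all 3 arrays of 1000 IU/ml IFN epsilon. They were chosen for that contrast, so their values are a description. Iigp1, a GTPase that attacks the vacuoles of intracellular parasites, read -7.83, -7.16 and -5.83 untreated and 2.68, 3.36 and 2.91 treated, at least 379.6-fold higher. Ifit1bl1 was at least 283-fold and Tnfsf10, the death ligand TRAIL, at least 43.9-fold higher. These 3 genes were not well above background on any untreated array and were on all 3 treated ones. Others of the 20 were Gm4951 (at least 36.6-fold), Apol10b (at least 16.6-fold), Gm7609 (at least 10.7-fold), Lmo2 and Cstdc5. All of these bounds hold for the scaling used here, and they were not computed under another. Slfn5 and Ifi44l, the other silent antiviral effectors, and Ifnb1 and Ifne were not among the 20.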

How the data were processed

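RNA of 21 ID8 samples was labelled with Cy3 and hybridised to 24 single-colour Agilent arrays. The deposited intensity values are spot signals that Feature Extraction 11.0.1.1 background-subtracted within each array, per the file headers, with flags of 0 or 1 for spots well above background. The authors' deposited log2 table, used as an alternative, was made with R 3.6.1 and limma 3.42.0, per the submitters' processing notes, with the steps between not stated there.

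Here the log2 signal minus the 75th percentile of each array was used. Outlier spots were left out, spots of a probe and then the 2 arrays of an untreated sample were averaged, and the probe with the highest mean over 19 samples stood for a gene. Of 56605 probes 32994 were named through RefSeq accessions (GRCm38.p6), giving 22911 genes. The 2 arrays marked as excluded in the labels entered only where stated. The number of arrays limits the precision.

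limma 3.58.1 (R 4.3.3) with Benjamini-Hochberg adjustment at 0.05 was used for all tests. Dates were compared over the 6 untreated arrays, with the spread between arrays of a sample as error, so those p-values do not measure spread between cultures of a date. Treated samples had treatment and date as terms, and the dose of 1000 IU/ml was compared with untreated cells over 19 samples. On simulated data, log2 changes of 1 were recovered for 32% of genes between untreated dates, with 0 false calls, and changes of 0.5 for 0%. Only 100 of 13996 genes were changed at each size, whereas 4647 were called in the data, so these shares do not give the recovery there. Simulated treated dates gave 8 false calls with 85% of changes of 1 recovered, and simulated IFN epsilon samples gave 7 with 50%. Figures used Python 3.11.15 and matplotlib 3.10.9.

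Replicate numbers are dates, per the labels, and so pair the samples: deviations of same-numbered samples correlated at 0.11 to 0.78 (30 pairs of samples), those of other numbers at -0.62 to 0.28. Normexp used median spot signals (offset 50). Alternatives were normalization, background correction, the deposited table, filters, slide, replicate block and leaving out arrays or samples.

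Named are the 15 genes of highest signal, the top 4 and up to 6 silent members of each list, the receptor chain and a panel of interferon and lineage genes, the 8 and 5 genes with the largest range between dates that were or were not called in treated samples, and the 8 silent genes with the largest rise by its lower bound; any other gene was chosen after its values were seen. The members and lists were chosen with earlier results of these data known. Some genes are not reported here.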

Additional observations from a re-analysis of the deposited data

Results flagged for a closer look

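The difference between dates 3 and 1 was not the same in untreated and treated samples for 7 genes, by limma's test of the difference, added after the data were seen. Untreated minus treated, it was 3.64 for Tmem237, 2.44 for Jtb, -3.79 for 8430431K14Rik, -2.46 for Apbb2, -1.83 for 2810408I11Rik, -1.73 for Ube2v2 and -1.34 for Tinf2. For 6 of them array 1 of date 3 stood apart from every other untreated array: Tmem237 read 9.28 there and 1.71 on array 2, and Jtb read 8.67 and 3.72. Apbb2 read -1.41 there and 3.18 on array 2. For 8430431K14Rik both arrays of date 1 were high, at -4.52 and -3.96.

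Of 23611 probes with no gene name here, 7139 (30.2%) were well above background on all 6 untreated arrays, and they enter no comparison.

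The 2 arrays marked as excluded, both of date 3, had higher interferon-stimulated genes than the other dates at their dose. The median of 49 expressed antiviral effectors minus the untreated sample of the same date was 3.41 at 100 IU/ml IFN beta, against 1.16 and 1.35 on dates 1 and 2. At 10 IU/ml it was 3.22, against 0.32 and 0.44.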

How the results depend on the processing

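The count of expressed genes kept within 1.5 times its value in every alternative run, and the silent genes numbered 3469 by the positive-and-significant flag. Genes differing between untreated dates numbered 2520 with no filter on dim probes, 1 to 5124 with 1 date left out and, without 1 array, 1788 and 2017 (date 2), 2082 and 2276 (date 3) and 4174 and 4889 (date 1). Between dates 2 and 1 the 91 calls became 50 (quantile), 271 (normexp), 148 (deposited table), 0 (no filter), 260 (well above background on all 6 arrays) and 0 to 72 without 1 array. Without 1 array, dates 3 and 1 gave 2737 and 3859 (date 1), 2576 and 2565 (date 2) and 2092 and 2559 (date 3) calls, and dates 3 and 2 gave 1545 and 1738 (date 2), 2757 and 2809 (date 3) and 5123 and 5124 (date 1); with slide as a block dates 3 and 1 gave 2929. Dates in treated samples gave 2431 calls under median scaling and 4373 to 6239 without 1 date. Without date 3 the ratio of the spread between samples to that between arrays fell from 1.73 to 1.01. The causes were not tested.

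With the replicate number as a block, which pairs samples by date, 1191 genes were called for 1000 IU/ml IFN epsilon and 466 for IFN beta, in place of 329 and 227. Under median scaling these were 174 and 144, with the excluded arrays 71 and 0, and IFN beta gave 57 in a fit to its 2 groups.

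The date 3 minus 1 difference of Tuba1b, 0.63, was -0.022 after quantile normalization and -0.14 in the deposited table, and that of Tcstv3, -1.54, was 0.15 under normexp; its readings on both dates lay below the lowest signal well above background, so the sign has no meaning. The share of higher calls was 49.7% after quantile normalization. Each date has 1 untreated sample, so spread within a date is not measured, and near-identical genes (Ifit3 and Ifit3b, Oas1a and Oas1g, H2 and Gbp genes) may share signal.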

Other observations

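Single genes lay over 2 log2 units apart between the 2 arrays of a sample, a count made after the data were seen: 16 genes on date 1, 36 on date 2 and 18 on date 3. All 16 were higher on array 1 of date 1 and all 36 lower on array 1 of date 2, and on date 3 11 were higher and 7 lower on array 1. Of the 36, 35 lay in array columns 124 to 164, which hold 24.3% of the genes compared.

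Of genes well above background on both arrays of every date, Wfdc18, Galnt16, Cst8, Gal3st2, Myl7, Saa3, Kbtbd11 and Ctsw had the largest ranges. Saa3, an acute-phase protein gene, read 0.91, 2.13 and 4.24 on dates 1, 2 and 3, and Ctsw, a protease of cytotoxic lymphocytes, read -2.11, -1.42 and 1.16.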
